A study of Enchytraeus crypticus with 54 samples.

Results

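The 100 genes described here were those whose signal was lowest in worms exposed for 3 days to copper nanoparticles at the EC50, relative to every other group of that day. They were chosen by their measured levels among 19499 genes (0.513%) that had a positive and significant signal on all 54 arrays, out of 43750 gene probes on the array. As in the study, each gene probe is called a gene. A level is the log2 of the processed signal minus the median log2 signal of the 19499 genes on the same array, so that 0 is the array's median gene and a step of 1 is a doubling. For each gene, a score was taken as the lowest of the 8 other group means at 3 days minus the group mean of the Cu-NPs EC50 group, and the 100 highest scores made the list. Everything at 3 days is therefore a description of the choice, without a test, and the tests compare groups of 7 days, which the score did not use. The arrays of 7 days did enter the filter on signal. The spread in the tests was taken over all 54 arrays, with those of 3 days that chose the list.

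Enchytraeus crypticus is a small white oligochaete worm that lives in soil and is used in standard ecotoxicity tests. Copper is an essential trace metal, needed by enzymes of respiration and of oxidative defence, and is toxic in excess. Animals keep free copper low with transporters, chaperones and metal-binding proteins such as metallothioneins. Nanoparticles and nanowires present the metal as a solid that can dissolve or be taken up, whereas a copper salt enters the soil water directly and field soil carries copper that has aged for years. No gene name or sequence was used here, so that the genes are given by the codes of the array design, "contig" for an assembled sequence and "GYUW" for the other codes, and nothing is said of what they encode.

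Each of the 18 groups had 3 arrays, and each array held labelled whole-body RNA from 1 pool of 20 adult worms with a well-developed clitellum, the band that forms the egg cocoon. The worms were kept in natural soil from Hygum, Denmark, either in soil from the control area (Control) or with copper as copper nitrate (CuNO3), nanoparticles (Cu-NPs), nanowires (Cu-NWires) or the copper of the polluted field (Cu-Field). Every copper form was used at 2 concentrations, chosen by their effect on reproduction, an expected loss of 20% at the EC20 and of 50% at the EC50, for 3 or 7 days, and the worms got no food. The p-values of limma measure the spread between pools of worms, as 1 value per gene over all 18 groups. They do not follow the spread of a single group where that is wider. In whole-body RNA, fewer cells that carry a transcript and less of that transcript per cell cannot be told apart.

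Across the 54 arrays the median signal of the kept genes ranged from 35.9 to 143.3 and the share of probes well above background from 38.2% to 66.5%. The arrays lay on 14 slides and were scanned on 2 days. The 3 arrays of Cu-NPs EC50 at 3 days had median signals of 85.8, 84.6 and 63.5, inside that range. No gene spot was saturated. Several results that follow depend on 1 array. On replicate 3 of Cu-NPs EC50 at 7 days the genes of the list lay near control levels, while replicates 1 and 2 were low. Over the 19399 genes outside the list, centred on their means over the 27 arrays of 7 days, replicates 1 and 2 correlated at 0.65, and replicate 3 with them at -0.26 and -0.27. These values describe 3 arrays that share their labelled treatment. Over the 27 replicate pairs of the 9 groups at 7 days, such correlations ranged from -0.57 to 0.72 with a median of 0.19. Of these pairs, 7 were below the value of replicates 1 and 3. The median level of the list was also uneven in other groups, as in Cu-Field EC50 at 7 days with -1.86, -0.06 and 0.30. The SD of the 3 arrays was 1.15 there and 1.73 in Cu-NPs EC50 at 7 days.

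At 3 days the median level of the 100 genes was -2.41, -2.47 and -2.21 on the 3 arrays of Cu-NPs EC50. On the 24 other arrays of that day it lay between -0.34 and 1.97. The control arrays were at 1.92, 1.26 and 1.37, so that the typical gene of the list moved from above the array's median in control worms to far below it in worms exposed to nanoparticles at the EC50. Cu-NPs EC20, the same particles at the lower concentration, had 1.38, 1.04 and 1.97 and overlapped the controls.

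The next lowest groups at 3 days were Cu-NWires EC50 with a mean of 0.27 ± 0.86 (SD, n = 3), Cu-NWires EC20 with 0.33 ± 0.58 and CuNO3 EC50 with 0.38 ± 0.45. These 3 did not differ from each other beyond their spread. CuNO3 EC20 had 0.997 ± 0.23, and Cu-Field EC20, Cu-Field EC50 and Cu-NPs EC20 had 1.38 ± 0.14, 1.43 ± 0.52 and 1.46 ± 0.47, next to the control at 1.52 ± 0.35. CuNO3 EC50 was the lowest of the 8 other groups for 41 genes, Cu-NWires EC50 for 31 and Cu-NWires EC20 for 19.

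**Figure D1:**
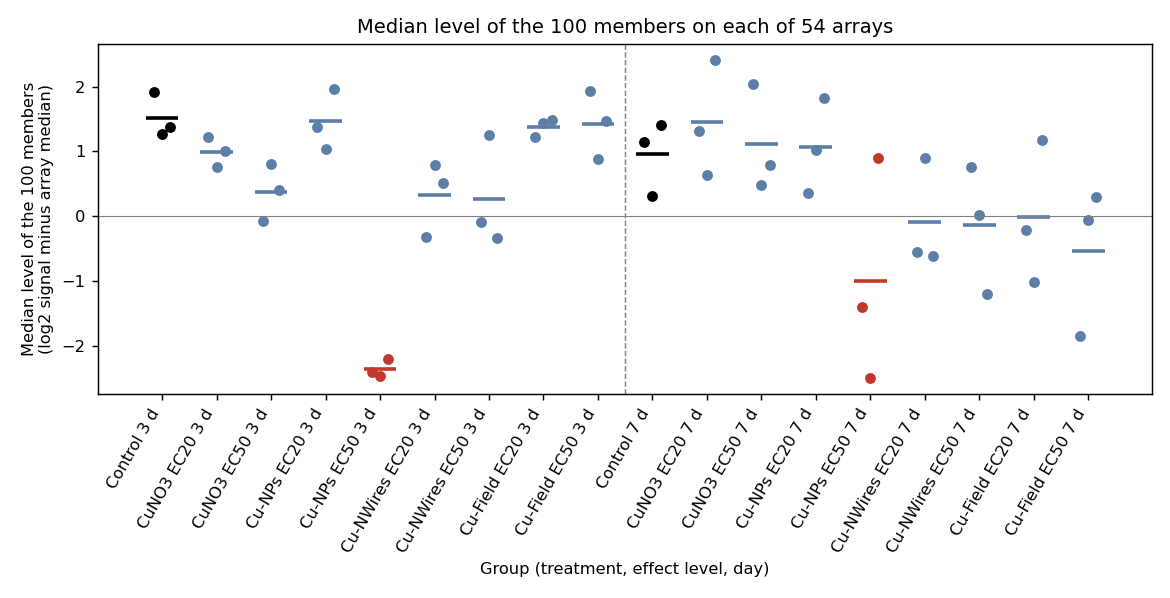
Median level of the 100 genes (y axis, log2 signal minus the array median) on each of the 54 arrays, by group, with replicates 1 to 3 from left to right and the group mean as a bar; red is Cu-NPs EC50, black the controls, blue the rest, and the dashed line divides 3 from 7 days. At 3 days the Cu-NPs EC50 arrays sit between -2.47 and -2.21, and at 7 days 2 of them are low and the other is at 0.90.

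The score that chose the genes ran from 8.93 for the first gene to 1.27 for the last, with a median of 1.94. It was above 4 for 15 genes and above 2 for 44. The last 3 inside the list were contig01998, contig19251 and contig06385, with scores of 1.28, 1.28 and 1.27. The first 3 outside were contig04534, GYUW2K402FPJ77 and GYUW2K402HA1ZD, with 1.26, 1.26 and 1.25, so that the edge of the list fell in a continuous run of values.

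All 3 arrays of Cu-NPs EC50 were below all 24 other arrays of 3 days for 84 of the 100 genes. Of all 19499 genes, 0.836% did so. Against the control of 3 days, the 3 arrays lay below the 3 control arrays for 93 genes of the list, where 14.5% of all genes did. In limma with Benjamini-Hochberg adjustment over all genes, 94 of the 100 were lower than control, where 6.9% of all genes were lower. These counts come from the contrast that chose the list and are given as its description only.

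Many of the low levels of Cu-NPs EC50 at 3 days were close to the array's background. All 3 nanoparticle arrays measured 45 genes well above background, 1 or 2 of them measured 41, and none measured 14, while 98 genes were well above background on all 3 control arrays. For the genes not measured on every nanoparticle array a fold is therefore a lower limit, computed from the control mean over the mean of, on each nanoparticle array, the gene's own signal or the array's lowest signal well above background, whichever was higher. With these limits, the 100 genes were lower than control by a median of at least 9.90-fold, and by 12.6-fold with the measured signals. The limit was over 100-fold for 6 genes, over 10-fold for 50 and over 4-fold for 91, and the smallest was 1.35-fold, in GYUW2K401CMCHR.

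GYUW2K401EIO4R had the highest score and was also the brightest gene of the list, with a mean log2 signal of 15.7. Its levels on the control arrays of 3 days were 11.76, 10.95 and 11.49, more than 10 doublings above the array's median. On the Cu-NPs EC50 arrays they were -0.65, 1.43 and 0.94, which put its signal about at the array's median. All 3 spots were well above background, and the difference of means was 1813-fold. No other array of 3 days was below 7.25, the level on 1 array of CuNO3 EC50 whose replicates lay above 10.

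GYUW2K401A9C8N followed with levels of 4.58, 3.98 and 3.11 in control and -4.50, -3.11 and -3.94 with Cu-NPs EC50. None of the nanoparticle spots was well above background, so that the gene was at least 134-fold lower. In GYUW2K401B71ZG the levels were 5.07, 4.53 and 3.84 in control against -1.53, -3.35 and -3.88, at least 134-fold lower.

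GYUW2K401AWA9S went from 6.36, 6.10 and 5.01 to -1.10, -1.49 and -2.22, at least 172-fold lower with 2 of the 3 nanoparticle spots well above background. For GYUW2K402INL4A the control levels were 5.17, 4.58 and 3.80 and the nanoparticle levels -1.54, -2.94 and -2.33, at least 110-fold lower. Both genes, like the 3 before them, were below every other array of 3 days on all 3 nanoparticle arrays.

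Of the other members of the first 10, 4 were lower by smaller factors. GYUW2K401DWK0U was 70.4-fold lower and well above background on all 3 nanoparticle arrays. GYUW2K402IWW35, GYUW2K401ETDXS and GYUW2K402JRWUJ were at least 53.6-fold, 43.9-fold and 28.4-fold lower. Their replicates spread widely near background, as in GYUW2K402IWW35 with -5.45, -2.32 and -0.33.

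contig10760, ranked 3 by score, had another course. Its levels at 3 days were 6.21, 6.34 and 5.37 in control and -2.09, -1.45 and -0.37 with Cu-NPs EC50, 155-fold lower with every spot well above background. At 7 days the same treatment gave 6.45, 5.36 and 6.05 against 5.74, 7.52 and 5.72 in control. The groups overlapped, and the log2 change was -0.37 (SE 0.60, adjusted p = 0.887 by limma). The 9 other genes of the first 10 were all lowest in Cu-NPs EC50 among the 9 groups of 7 days.

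Not all members were low on every nanoparticle array. On replicate 2 of Cu-NPs EC50 at 3 days, 7 genes of the list lay more than 4 log2 units below both other replicates, a limit set after the values were seen. In GYUW2K401DDKHQ, with a mean log2 signal of 14.4 the second brightest of the list, the 3 levels were 8.68, 0.51 and 8.36, and the other 24 arrays ranged from 7.39 to 9.03. GYUW2K401C3WOC had 6.37, 0.85 and 7.25, contig27177 had 6.23, -0.63 and 6.73, and contig10598 had 5.07, -1.83 and 5.52. GYUW2K401D1M59, contig15048 and contig13472 had the same form, with 2 arrays near the other groups and 1 far below.

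The 7 spots, and 1 more of a gene outside the list, contig16127, lay in columns 23 and 24 and rows 30 to 61 of an array with 85 columns and 532 rows. They were all 8 of the kept genes with such a gap on that array. That block held 24 kept genes and 9 of the list, and the median of replicates 1 and 3 minus replicate 2 was 0.33 there and -0.06 over all kept genes. Only 1 of the 8 spots, that of contig27177, carried an outlier flag of the scanner software. The part of the spot position in these values was not tested. None of the 7 genes was in the list when the median of the 3 arrays replaced their mean. The other 93 genes had a median change of -3.71 at 3 days, against -3.65 for the 100.

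**Figure D2:**
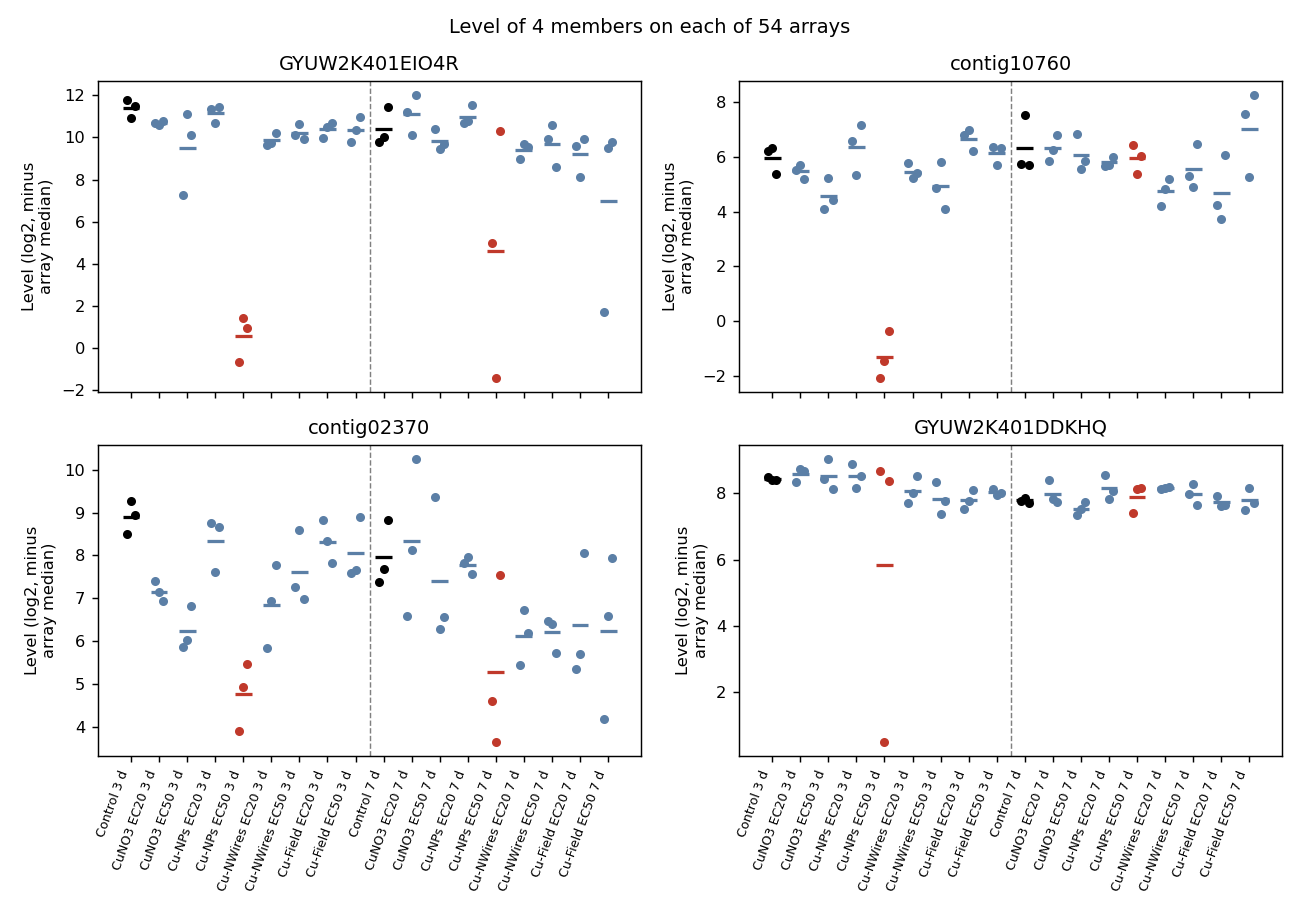
Levels (y axis, log2 signal minus the array median) of 4 genes on the 54 arrays by group, with group means as bars; red is Cu-NPs EC50, black the controls and blue the rest. GYUW2K401EIO4R and contig02370 are low at both times on 2 or 3 arrays, contig10760 is low at 3 days alone with control levels at 7 days, and GYUW2K401DDKHQ is low on a single array, at 0.51.

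Among the other bright genes, contig02370 had a mean log2 signal of 13.6. Its levels were 8.49, 9.27 and 8.93 in control of 3 days and 3.89, 4.92 and 5.47 with Cu-NPs EC50, 17.6-fold lower with all spots well above background. Its other groups of 3 days were graded. The means were 6.24 with CuNO3 EC50, 6.85 with Cu-NWires EC20, 7.16 with CuNO3 EC20 and 7.61 with Cu-NWires EC50, and 8.05 to 8.35 in the Cu-Field and Cu-NPs EC20 groups.

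Other features of the genes were read on the 27 arrays of 7 days, which the score did not use, or from the array design. Of the 100, 71 had a GYUW code and 29 were contigs, where 53.1% of the kept genes had a GYUW code. The 2 kinds had median log2 changes of -1.91 and -1.70 with Cu-NPs EC50 at 7 days. On the arrays of 7 days the median of the mean log2 signal was 6.88 in the list and 6.52 in all kept genes, and 62 of the 100 were well above background on all 27 arrays, where 69.8% of the kept genes were. Replicates of one group varied more in the list, with a median within-group SD of 1.16 at 7 days against 0.47. Each of the array's 4 quadrants held 21 to 28 genes of the list. They were not evenly spread, as 9 lay in the small block of columns 23 and 24 described above, among its 24 kept genes.

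Slides and scan days were set beside the level. Replicate 1 of Cu-NPs EC50 at 3 days was on a slide with arrays of CuNO3 EC50 and Cu-NWires EC20 of 3 days and CuNO3 EC20 of 7 days, and the median levels on these 3 arrays were -0.08, -0.33 and 1.32 against -2.41 for the nanoparticle array. Replicates 2 and 3 shared a slide with an array of Cu-NWires EC50 of 3 days at -0.09 and one of 7 days at 0.02. Within these 2 slides, 94 and 100 genes of the list were lower on the nanoparticle arrays than on the mean of the others, with median differences of -2.34 and -2.02, where 42.4% and 43.8% of all genes were lower. The list was chosen on these nanoparticle arrays. The arrays of CuNO3 EC50 and Cu-NWires EC20 on the first of these slides were the lowest of their own 3 replicates. No control array was on either slide. Within the first and the second scan day the median difference from control was -3.59 and -3.47.

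The 7-day arrays answer whether genes so low at 3 days were still low later under the same treatment, and whether other copper forms lowered them. In Cu-NPs EC50 at 7 days the median levels of the 100 genes were -1.41, -2.49 and 0.90. Control arrays were at 1.15, 0.31 and 1.41 and Cu-NPs EC20 arrays at 0.36, 1.03 and 1.83. Replicates 1 and 2 lay below every other array of 7 days except 1 of Cu-Field EC50 at -1.86, which was lower than replicate 1, and replicate 3 lay inside the control range.

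Against control at 7 days, 93 of the 100 genes had a lower mean with Cu-NPs EC50, with a median log2 change of -1.87 and quartiles of -2.66 and -1.44. Over all 19499 genes the median change was -0.04 and 53.9% were lower. None of the 100 passed limma's test after Benjamini-Hochberg adjustment over all genes, where 0.00513% of all genes, 1 gene, were called lower. The smallest adjusted p in the list was 0.101, of GYUW2K402HVVC9, and 76 of the genes had an unadjusted p under 0.05 and were lower, where 5.43% of all genes were. The methods' t-test had 4 such genes, where 2.42% of all genes were, and called none after adjustment. The 3 nanoparticle arrays were all below the 3 control arrays for 8 genes of the list, where 5.75% of all genes were. Genes of the list moved together, with a mean correlation of 0.58 within groups of 7 days. Counts of them, here and below, are therefore not counts of independent genes.

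These low counts rested on replicate 3. On replicates 1 and 2 of Cu-NPs EC50, 89 and 89 genes of the list were below all 3 control arrays, and on replicate 3 there were 9, where 31.0%, 29.6% and 21.0% of all genes were. The median differences from the control mean were -2.37, -3.11 and -0.13. Within the first scan day, with replicates 1 and 3, the median difference was -1.51, and within the second, with replicate 2, -3.10. On the slide that held both groups, replicate 1 differed from control replicate 1 by a median of -2.65. There 92 genes of the list were lower, where 53.3% of all genes were. Without replicate 3, 51 genes of the list were called lower by limma and none higher, where 0.769% of all genes were called lower, and the median change was -2.82. Without replicate 1 or replicate 2, none was called.

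**Figure D3:**
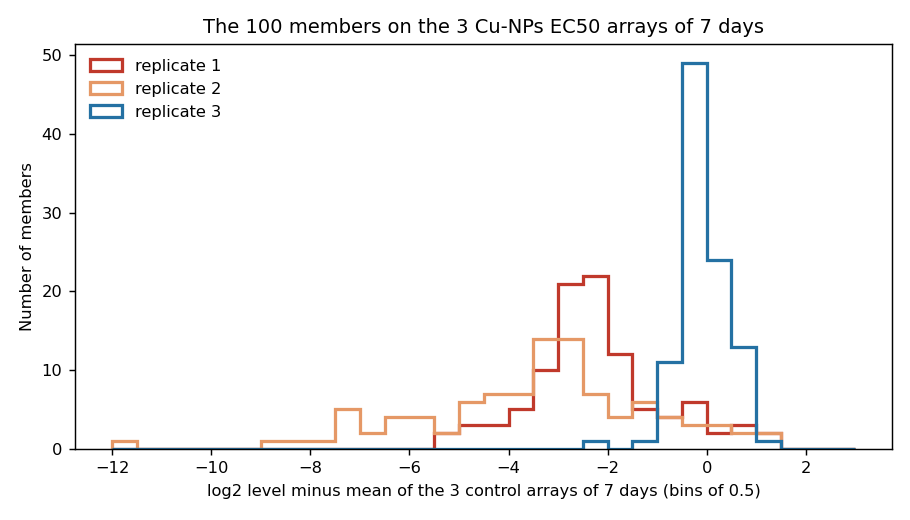
Number of genes of the list (y axis) by their log2 level on each Cu-NPs EC50 array of 7 days minus the mean of the 3 control arrays of 7 days (x axis, bins of 0.5). Replicates 1 and 2 have medians of -2.37 and -3.11, with a tail to -11.85 in replicate 2, and replicate 3 centres on -0.13.

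The deepest falls at 7 days were in genes that led the list at 3 days. GYUW2K401EIO4R had levels of 4.98, -1.43 and 10.28 with Cu-NPs EC50 against 9.79, 10.04 and 11.44 in control, a log2 change of -5.81 (SE 1.49, adjusted p = 0.169 by limma). GYUW2K401A9C8N had -1.51, -5.47 and 3.71 against 2.73, 3.16 and 3.55, a change of -4.24 (SE 1.16, adjusted p = 0.196 by limma), or at least 13.6-fold lower, with 2 of the nanoparticle spots well above background. In both, 2 arrays were far below control and the third was within 1 unit of it.

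The rest of the 5 lowest were alike. GYUW2K402IWW35 had -0.04, -5.30 and 2.88 against 3.29, 2.36 and 3.11 in control, and contig08301 had -1.21, -5.07 and 2.13 against 2.38, 2.55 and 2.07. GYUW2K401B71ZG had 0.13, -2.54 and 4.17 against 4.17, 3.97 and 4.34. Their changes were -3.74, -3.72 and -3.57. The first 2 had 2 nanoparticle spots well above background and were at least 10.02-fold and 10.42-fold lower, and the last was well above background on all 3. In each of them, replicate 3 was inside the control range, so that the groups overlapped through that array. GYUW2K402HVVC9, a dim gene, was lower on all 3 arrays, with -4.43, -4.91 and -3.08 against -2.53, -1.42 and -1.49 and a change of -2.33 (SE 0.54). Only 1 of its nanoparticle spots was well above background, so that it was at least 3.32-fold lower.

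At the other end, 7 genes were not lower at 7 days. The 5 highest were contig15048 with a log2 change of 1.07, contig27177 with 0.89, contig10598 with 0.50, GYUW2K401D1M59 with 0.40 and GYUW2K401ARO4N with 0.37, none of them called. The first 4 belong to the 7 genes that were low on a single array at 3 days. GYUW2K401ARO4N had 0.35, -1.10 and 0.23 at 3 days against 3.14, 3.27 and 3.07 in control, and at 7 days 3.09, 2.85 and 3.39 against 0.99, 3.82 and 3.42. Of the 93 genes without the single-array cases, 91 were lower at 7 days, with a median change of -1.92.

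The list was set beside the other dose of the same particles. Cu-NPs EC50 was lower than Cu-NPs EC20 at 7 days for 92 of the 100 genes, with a median log2 difference of -2.05 against -0.10 for all genes. The median was -0.98 with normexp background correction and -0.30 with spike-in scaling, which moved the median of all genes to 1.65. In limma, 21 of the list were called lower and none higher, where 2.18% of all genes were called lower. With slide as a random block, at an estimated correlation of 0.159 between arrays of a slide, none was called, and the smallest adjusted p in the list was 0.0667 by limma. The 21 adjusted p-values lay between 0.0392 and 0.0485, just under the threshold, and 77 had an unadjusted p under 0.05 and were lower, where 16.9% of all genes were. All 3 EC50 arrays were below the 3 EC20 arrays for 15 genes, where 18.3% of all genes were, a share of the list no higher than the background.

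contig21834 had the smallest p. Its levels were -3.32, -2.87 and -1.97 with EC50 against 0.10, 0.22 and -0.27 with EC20, a difference of -2.74 (SE 0.59, adjusted p = 0.0392 by limma), and the groups did not overlap. GYUW2K401ERK7U had -0.57, -3.56 and 4.20 against 3.82, 3.98 and 5.81, a difference of -4.51 (SE 0.996, adjusted p = 0.0405 by limma), with replicate 3 among the EC20 values. contig09497 had -4.30, -3.78 and 1.18 against 1.21, 1.51 and 2.83, a difference of -4.15, or at least 14.7-fold lower, with 1 of the EC50 spots well above background, and its highest EC50 array was just under the lowest EC20 array.

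GYUW2K401EIO4R was also called, with 10.67, 10.77 and 11.52 at the EC20 and a difference of -6.38 (SE 1.49, adjusted p = 0.0436 by limma). GYUW2K402HVVC9, GYUW2K401A9C8N, GYUW2K402INL4A, contig08237, GYUW2K401AWA9S and GYUW2K401B71ZG, the rest of the 10 with the lowest p, differed by -2.25, -4.65, -3.93, -3.80, -4.19 and -3.66. Of these, GYUW2K402HVVC9 was well above background on 1 EC50 array and GYUW2K401A9C8N and contig08237 on 2, so that these 3 were at least 3.14-fold, 18.2-fold and 12.0-fold lower. In 5 of these 6, all but GYUW2K402HVVC9, replicate 3 of the EC50 was at least 5 units above replicate 2.

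The 21 calls were lost with several other fits, though a fit with the replicate number as a block still called genes of the list. No gene of the list was called with slide as a fixed or random block, with scan day as a block, with the 2 groups alone or with the arrays of 7 days alone. Without any one of the 3 EC50 arrays the count was 0 (replicate 1), 0 (replicate 2) and 78 (replicate 3, where 11.1% of all genes were called lower), and it was 0, 11 and 0 without EC20 replicate 1, 2 or 3. The counts without an EC20 replicate are given without the share of all genes called and are not read as results about the list. Within scan days the median difference was -0.68 and -3.74, and on the 1 slide that held both groups, with EC50 replicate 3 and EC20 replicate 1, it was 0.44.

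The other copper forms at 7 days were ordered by the level of the list. Cu-NPs EC20 and CuNO3 at the EC50 and EC20 had mean levels of 1.07 ± 0.73, 1.11 ± 0.83 and 1.46 ± 0.90 (SD, n = 3), next to the control at 0.96 ± 0.58. The median changes from control were 0.10, 0.18 and 0.38. Cu-NWires EC20 and EC50 had -0.09 ± 0.86 and -0.14 ± 0.99, Cu-Field EC20 -0.02 ± 1.11 and Cu-Field EC50 -0.54 ± 1.15, with median changes of -1.13, -1.13, -1.11 and -1.66. In these 4 groups 94, 94, 92 and 91 of the 100 genes had a lower mean than control, where 52.4%, 47.3%, 56.3% and 55.7% of all genes did. Neighbours in this order did not differ beyond their spread, and Cu-NPs EC50, at -0.999 ± 1.73, overlapped all of them. The median change with Cu-Field EC20 became 0.08 with slide as a block, and those with Cu-NPs EC20 and CuNO3 EC20 became -0.85 and -0.02 with spike-in scaling. That scaling shifts all genes of an array alike. In Cu-NPs EC50 against control and against EC20 it moved the median of all genes to 0.76 and 1.65. The median of all genes is not given for Cu-NPs EC20 and CuNO3 EC20, so that -0.85 and -0.02 are not read as changes of the list.

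No gene of the list was called against control in any of these 7 treatments by limma. The background was 0% for CuNO3 EC20 and Cu-NPs EC20, 0.00513% for CuNO3 EC50, 0.0205% and 0.0256% for Cu-NWires EC20 and EC50, and 0.0308% and 0.303% for Cu-Field EC20 and EC50. At an unadjusted p under 0.05, the number of genes of the list that were lower was 60 with Cu-Field EC50, where 9.72% of all genes were lower, and 10 with Cu-Field EC20 (6.32% of all genes). It was 20 with Cu-NWires EC20 (4.16%), 23 with Cu-NWires EC50 (3.83%), 1 with CuNO3 EC50 (1.46%), 1 with Cu-NPs EC20 (3.12%) and 0 with CuNO3 EC20 (5.61%). The methods' t-test after adjustment called none.

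Without a model, all 3 arrays of Cu-Field EC50 lay below all 3 control arrays for 42 genes of the list, where 9.66% of all genes did. For Cu-NWires EC20 there were 25 genes (7.81% of all genes), for Cu-NWires EC50 12 (4.06%), for Cu-NPs EC20 3 (3.26%) and for Cu-Field EC20 2 (8.11%). There were none for CuNO3 EC20 (5.36%) or CuNO3 EC50 (4.72%). The median levels of the list on the Cu-Field EC50 arrays were uneven, at -1.86, -0.06 and 0.30, against 1.15, 0.31 and 1.41 in control. On the slide that held both groups, Cu-Field EC50 replicate 3 was at 0.30 and control replicate 2 at 0.31. The comparisons with control at 7 days share the 3 control arrays, on which the list had a lower level than on those of 3 days. The median difference was -0.54 in log2, against -0.07 for all genes. In the list 82 of the 100 genes were lower at 7 days, where 54.7% of all genes were. The control of 3 days entered the choice of the list as 1 of the 8 other groups, so that this difference is a description.

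Cu-NPs EC50 had the lowest mean of the 9 groups of 7 days for 60 of the 100 genes, where it was the lowest for 14.1% of all genes. Cu-Field EC50 was lowest for 22, where it was for 18.7% of all genes. The highest group was CuNO3 EC20 for 55 genes of the list and CuNO3 EC50 for 26, counts given without the share of all genes.

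**Figure D4:**
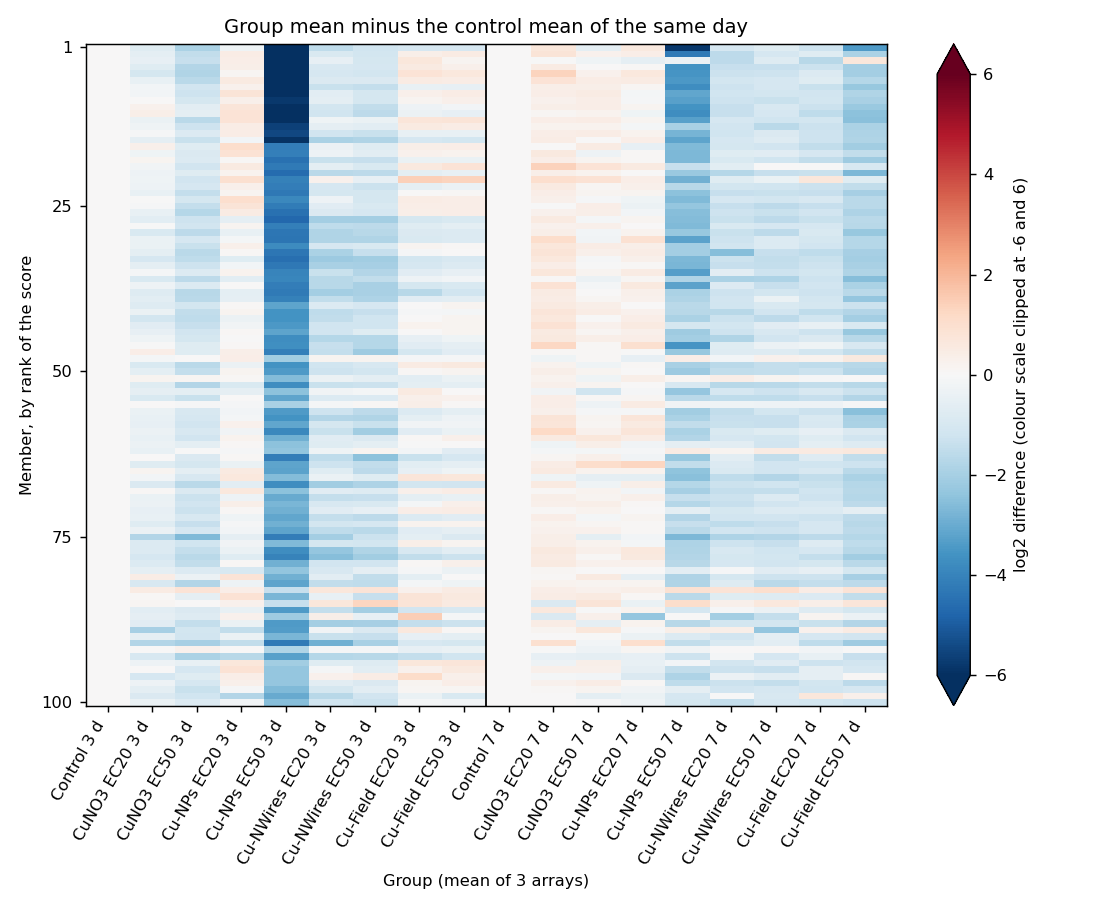
Mean level of each of the 100 genes (rows, by rank of the score) in each of the 18 groups (columns) minus the control mean of the same day, as log2 colour clipped at -6 and 6. Blue is lower than control. The column of Cu-NPs EC50 at 3 days is blue throughout, and at 7 days the Cu-NPs EC50, Cu-NWires and Cu-Field columns are blue in most rows, with 93, 94, 94, 92 and 91 genes lower.

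**Figure D5:**
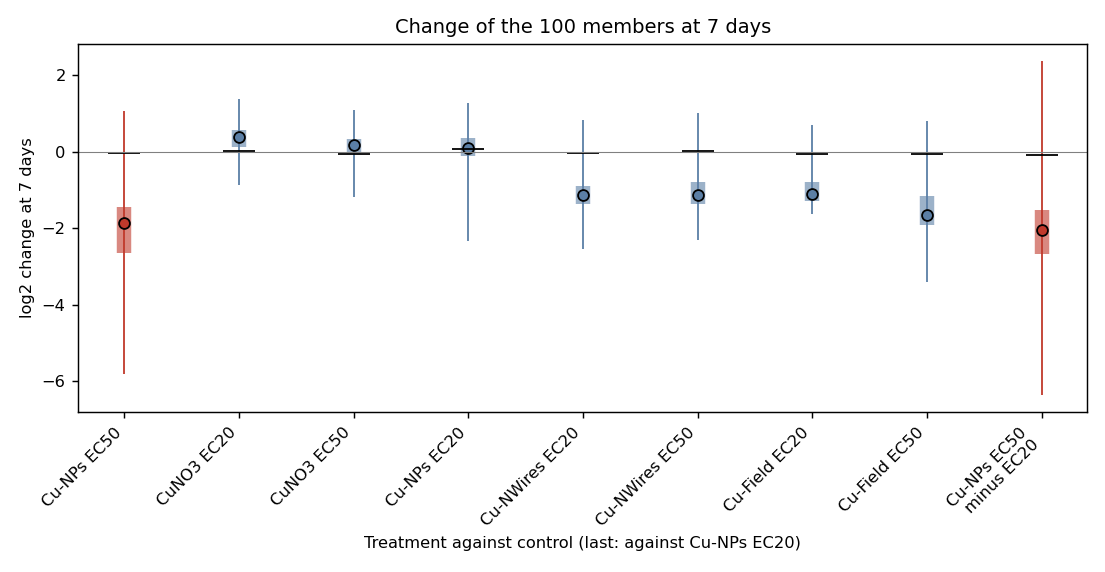
Log2 change of the 100 genes at 7 days for each treatment against control, and for Cu-NPs EC50 against EC20 (y axis); the circle is the median, the thick bar the range between the quartiles, the thin line the lowest to the highest gene, and the black dash the median of all 19499 genes. The medians lie at -1.87 for Cu-NPs EC50 and -2.05 against EC20, between 0.10 and 0.38 for CuNO3 and Cu-NPs EC20, and between -1.66 and -1.11 for Cu-NWires and Cu-Field, while all genes stay between -0.10 and 0.06.

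The genes of the list moved together at 7 days, in samples that did not enter the score. Within groups, after each group mean was removed, the mean correlation between 2 genes over the 27 arrays of 7 days was 0.58, and between 2 of all kept genes it was 0.02. Over the 9 group means of 7 days these values were 0.65 and 0.01. The points share arrays, slides and the scaling by the array's median, and the values are descriptions. Over these 27 arrays the median level of the list had a Pearson correlation of -0.63 with the log2 of the array's median signal and -0.61 with the share of probes well above background. The part of array brightness in the level was not tested. The 3 arrays of Cu-NPs EC50 at 7 days had median signals of 119.4, 100.7 and 104.0, and the control arrays 114.2, 114.7 and 47.5.

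With the mean of the list over the 9 groups of 7 days, 85 of the 100 genes correlated above 0.7, as 13.3% of all kept genes did. Each gene of the list is part of that mean, so that the share of all kept genes is not a like reference. A negative correlation was found in 6 genes, contig10598, contig27177, GYUW2K401D1M59, contig15048, contig07273 and GYUW2K401DDKHQ. All but contig07273 were among the 7 genes low on a single array at 3 days. contig07273 had levels of -3.41, -2.29 and -1.42 with Cu-NPs EC50 at 3 days and a change from control of 0.04 (SE 1.11) at 7 days.

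Outside the list, the 5 genes whose 18 group means were most like the mean of the list were GYUW2K402JWAOS, contig16302, GYUW2K402GUMIG, GYUW2K402FPJ77 and GYUW2K401C21Z4. Their Pearson correlations over the 18 groups were 0.96, 0.96, 0.96, 0.96 and 0.95, and by score they ranked 134, 105, 118, 102 and 121, so that they stood just past the edge. The level of GYUW2K402JWAOS was 0.19 in control and -2.17 with Cu-NPs EC50 at 3 days, and -0.20 and -1.80 at 7 days.

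The choice of the list was read on arrays left out of it. A list chosen with replicates 2 and 3 of Cu-NPs EC50 alone shared 80 genes with the 100, and on replicate 1, 80 of its 100 genes were below the lowest other group mean, as 16.6% of all genes were. For lists chosen without replicate 2 and without replicate 3, which shared 84 and 93 genes, the numbers on the array left out were 97 and 91, where 16.3% and 21.5% of all genes were. The other groups of 3 days were the same in all 3 choices. Their lowest mean helped to choose each list and was also the yardstick on the array left out. The share of all genes is therefore not a like reference, and the numbers are a description.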

How the data were processed

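Total RNA of 54 pools of 20 Enchytraeus crypticus was labelled with Cy3 and hybridised to one-colour custom Agilent arrays, 1 array per pool. The deposited intensity values are gProcessedSignal of Agilent Feature Extraction 10.7.3.1, which the authors' scanner software corrected for background, without scaling between arrays. The table of the whole series deposited by the authors holds the same intensity, rounded (0.995 to 1 times the scanner value), and was an alternative. The arrays' number limits the precision. Probes with gIsPosAndSignif of 1 on all 54 arrays were kept (19499 of 43750). Levels are log2 of the signal minus the array's median over these genes. This is a median scaling like the study's Median normalization, but over the genes kept on these arrays and with no overall median added back.

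Group means were fitted with limma 3.58.1 (R 4.3.3) over all 54 arrays, with moderated tests, two-sided, and Benjamini-Hochberg adjustment over 19499 genes at 0.05. In simulated data for Cu-NPs EC50 against control at 7 days with 200 of 19499 genes changed, 15% were recovered at a log2 change of 1 and 75.5% at 2. The changed genes were drawn at random, with 1 spread per gene for all groups. In the measured comparison the median SE was 0.77 in the list and 0.37 in all genes. The recovered shares therefore do not give the power for the list. Slides and scan days were numbered from the file headers. Replicate numbers come from the sample titles. For Cu-NPs EC50 and control at 7 days, arrays of the same number deviated together (correlations of 0.44, 0.21 and 0.45 over genes), and a fit with the replicate number as a block changed no call there. For Cu-NPs EC50 and EC20 the correlations were 0.00, -0.11 and 0.31.

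The members and all lists, tests and limits were chosen with earlier results of these data known. The genes named are the 10 highest and 3 lowest scores, the 3 outside the list, the 5 brightest, the 5 lowest and highest changes at 7 days, the 10 lowest p-values among called genes and the 5 most alike outside the list. Others were named after their values were seen. Alternatives were other scalings (SVCD and Quantile as in the study, the 75th percentile, 7 E1A spike-in probes, none), normexp with an offset of 50 on the median signal, other filters, blocks, fits and left-out arrays. SVCD was rewritten from the study's description. Probe names were the only annotation used.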

Additional observations from a re-analysis of the deposited data

Results flagged for a closer look

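Cu-NPs at the EC50 and at the EC20 differed at 7 days in 21 of the 100 genes, all lower at the EC50, by limma's test of the difference itself at an adjusted p under 0.05, where 2.18% of all genes were called lower. None of the 21 was called with slide as a fixed or random block, scan day as a block, the 2 groups alone, the arrays of 7 days alone, normexp or the methods' t-test. With the replicate number as a block, genes of the list were still called. The median difference over the list was -2.05 in log2, -0.98 with normexp and -0.30 with spike-in scaling. The lower level was on replicates 1 and 2 of the EC50, at -1.41 and -2.49, and not on replicate 3, at 0.90.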

How the results depend on the processing

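Settings were changed singly, except that the replicate block in the 2 groups changed arrays and design together, and normexp used the median spot signal with its offset. The median change of the list in Cu-NPs EC50 against control at 7 days was -1.87 and stayed negative throughout, from -1.07 (E1A spike-ins) and -0.94 (normexp) to -1.91, and from -2.82 to -1.21 with single arrays left out. No gene of the list was called in these settings, except that the count with single arrays left out ran from 0 to 51, the 51 without Cu-NPs EC50 replicate 3. The replicate block gave 0 there and 23 against EC20, and the block within the 2 groups alone, added after the data were seen, gave 0. The 23 is given without the share of all genes called and is not read as a result about the list. With the spike-ins the median change of all genes was 0.76 in this comparison and 1.65 against EC20.

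Against EC20 the median was -2.05, from -3.0 to -1.39 with single arrays left out, -0.98 with normexp and -0.30 with the spike-ins. The counts that follow are given without the share of all genes called and are not read as results about the list. The 21 calls became 9 with the spike-ins, 8 with genes well above background, 4 with no normalization and 1 with no filter on dim probes. They became 0 with normexp, the 2 groups alone, the arrays of 7 days alone, slide or scan day as a block, slide as a random block and the methods' t-test, and 0 to 78 with single arrays left out. The cause was not tested. Over the other 7 treatments the calls summed to 0, and to 0 to 2 with single arrays left out. The median change with Cu-NPs EC20, 0.10, was -0.85 with the spike-ins, which shift all genes of an array alike. It is given without the median of all genes and is not read as a change of the list. The median change with Cu-Field EC20, -1.11, was 0.08 with slide as a block.

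Of the 100 genes, 59 were in the list with no filter on dim probes, 56 with normexp and 40 with genes well above background, a filter that only 40 of them passed. With single arrays left out 80 to 100 were shared. Signal over background limits the folds of the 55 genes not measured on every Cu-NPs EC50 array of 3 days.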
